A study of Mus musculus with 23 samples.

Results

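The genes described here break down, make, carry and sense retinoic acid in the liver. They are 9 in number, *Cyp26a1*, *Cyp26b1*, *Dhrs3*, *Rdh10*, *Rdh16*, *Rbp4*, *Rara*, *Rarb* and *Rarg*, and were taken as the non-control array probes whose gene name in the scanner files equals one of these symbols. That gave 16 of the 56605 probes, and 9 of the 37074 gene names, on the array. After dim probes were set aside, 12 probes remained, and all 9 genes were still measured, among 32086 probes of 21056 genes. *Cyp26b1* was chosen by its measured fall after treatment, so its values in wild-type livers are a description without a test.

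Transcripts were measured in the livers of 23 male mice, each on an Agilent 1-colour array of its own. Pregnenolone 16α-carbonitrile (PCN), a ligand of the mouse pregnane X receptor (PXR, gene *Nr1i2*), was injected once a day for 4 days at 100 mg/kg into wild-type (WT) mice and into *Pxr*-/- mice, which carry a deletion of this receptor gene, and controls (CONT) got the corn oil vehicle alone. The groups were WT CONT (n = 6), WT PCN (n = 5), *Pxr*-/- CONT (n = 6) and *Pxr*-/- PCN (n = 6), all on the C57BL/6J background and all killed 6 h after the last injection, at ZT6. WT mice were bought at 6 weeks of age, whereas *Pxr*-/- mice, whose age the labels do not give, came from a colony kept in the facility, so genotype and colony cannot be told apart.

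Retinoic acid is made from vitamin A in paired oxidation steps, from retinol to retinal by retinol dehydrogenases and from retinal to retinoic acid by retinal dehydrogenases. It acts through the receptors RARα, RARβ and RARγ, which bind DNA together with RXR, the partner that PXR also uses. CYP26 enzymes hydroxylate and so remove it, and the liver, where stellate cells store retinyl esters and hepatocytes release retinol bound to RBP4, is the main store of vitamin A.

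*Cyp26a1*, *Cyp26b1* and *Rarb* are shown first by their promoters, because the first 2 changed most among the members and *Cyp26a1* and *Rarb* are textbook targets of the retinoic acid receptors. The 250 bases before the start site are given 5′ to 3′ from RefSeq (GRCm38.p6), at chr19:37697558-37697807 on the + strand for *Cyp26a1*, chr14:16575477-16575726 on the - strand for *Rarb* and chr6:84593811-84594060 on the - strand for *Cyp26b1*. Capitals mark half-sites, read on both strands, of the letters AGGTCA or AGTTCA or GGGTCA or GGTTCA.
Cyp26a1: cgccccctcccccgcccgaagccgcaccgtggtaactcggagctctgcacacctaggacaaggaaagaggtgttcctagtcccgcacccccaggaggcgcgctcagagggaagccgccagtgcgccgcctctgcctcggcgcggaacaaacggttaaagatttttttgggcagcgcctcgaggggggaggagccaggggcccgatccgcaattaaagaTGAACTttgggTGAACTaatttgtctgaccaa
Rarb: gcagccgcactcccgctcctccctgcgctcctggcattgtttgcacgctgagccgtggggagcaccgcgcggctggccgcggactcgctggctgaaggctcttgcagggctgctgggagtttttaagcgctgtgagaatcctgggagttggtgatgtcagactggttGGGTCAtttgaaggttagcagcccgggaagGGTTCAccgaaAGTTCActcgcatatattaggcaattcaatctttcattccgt
Cyp26b1: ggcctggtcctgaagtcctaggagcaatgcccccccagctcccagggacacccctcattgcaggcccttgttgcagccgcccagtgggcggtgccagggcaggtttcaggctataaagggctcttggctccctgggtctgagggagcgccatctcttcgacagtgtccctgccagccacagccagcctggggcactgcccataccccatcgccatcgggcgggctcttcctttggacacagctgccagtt

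The *Cyp26a1* promoter held 2 half-sites in the same orientation with 5 bases between them, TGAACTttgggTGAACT, at positions -32 to -16 relative to the start. The *Rarb* promoter held such a direct repeat too, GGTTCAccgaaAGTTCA, at positions -53 to -37. A direct repeat of this spacing was found in 0.0974% of the 32851 promoter windows of 300 bases in the table (250 bases before to 50 after a start), whereas a single half-site was found in 43.7% of them. The *Cyp26b1* window held no half-site in these letters. Of the 9 genes, 8 had a promoter in the table, with 15 windows between them (*Rdh10* had none), and the direct repeat occurred in the *Cyp26a1* window and 1 *Rarb* window. *Rara*, *Rarg*, *Rdh16* and *Rbp4* had half-sites but no such repeat, and no member had a repeat with a spacer of 2 or 4 bases. These matches describe the letters and were not tested for binding.

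Where a gene had several kept probes, the one with the highest mean signal stands for it, and positions of probes follow the scanner files (build mm9). *Cyp26a1* was measured by 1 probe of 60 bases (chr19:37775566-37775625, + strand), *Cyp26b1* by 1 probe (chr6:84521952-84522011, - strand), *Rara* mainly by a probe at chr11:98836197-98836256 (+ strand) and *Rarb* mainly by one at chr14:17263511-17263570 (- strand). The files do not say whether these positions are exonic or in untranslated regions. The *Cyp26a1* probe is given whole and the others by their first 30 bases, since the values of these genes that follow were read from them.
Cyp26a1 probe: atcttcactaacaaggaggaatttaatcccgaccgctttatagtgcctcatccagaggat
Cyp26b1 probe, first 30 bases: gttcgtgtgtctcgttgtggtagcattaat
Rara probe, first 30 bases: tcctgctgggtttccactgagatctactgg
Rarb probe, first 30 bases: aatgagtggttgacagactcaagtgtcggc

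On an array, from 29506 to 33319 of the 56605 probes stood well above background, and any 2 arrays correlated at 0.977 or more over the kept probes. Signals are given on the log2 scale after quantile normalization, and changes are fitted log2 differences. A gene was called when its adjusted p (limma, Benjamini-Hochberg over all kept probes) was at most 0.05 and its fold change exceeded 1.5. *Cyp3a11*, a classical PXR target, rose by 3.55 in WT (adjusted p = 4.12e-10), with a change of 0.31 in *Pxr*-/- (adjusted p = 0.431). The *Nr1i2* probe did not separate the genotypes (*Pxr*-/- CONT against WT CONT -0.03, adjusted p = 0.977), and whether it lies in the deleted part of the gene is not given in the sources used here, so the labels were checked with *Cyp3a11* and *Cyp2c55*, another gene known to be induced by PCN. The 6 hepatocyte markers were all measured, and the log2 of their summed signal lay between 19.37 and 19.68 on all arrays.

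*Cyp26a1*, whose product is the main retinoic acid hydroxylase of adult liver, changed in opposite directions in the 2 genotypes. It rose 2.74-fold after PCN in WT mice and fell 2.82-fold after PCN in *Pxr*-/- mice. In WT CONT mice its log2 signal ran from 8.36 to 9.42 with a median of 8.97. In WT PCN mice it was 9.99, 9.34, 10.65, 10.86 and 11. The lowest WT PCN mouse, at 9.34, lay just under the highest control, so the groups overlapped by a single mouse each, and the other 4 PCN mice were above every control.

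The picture in *Pxr*-/- mice was turned around. *Cyp26a1* signals ran from 9.29 to 11.4 (median 10.36) in *Pxr*-/- CONT mice and from 8.18 to 9.61 (median 8.69) in *Pxr*-/- PCN mice. Of the 6 PCN mice, 5 lay below every *Pxr*-/- control, and the last, at 9.61, above the lowest 2 (9.29 and 9.44). Ordered by mean, the groups ran from WT PCN (10.37 ± 0.69, SD, n = 5) and *Pxr*-/- CONT (10.24 ± 0.79, n = 6) down to WT CONT (8.91 ± 0.38, n = 6) and *Pxr*-/- PCN (8.75 ± 0.53, n = 6). The upper pair did not differ beyond its spread, nor did the lower pair.

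The fitted change of *Cyp26a1* was 1.45 in WT (SE 0.35, adjusted p = 0.00458, limma) and -1.49 in *Pxr*-/- (SE 0.33, adjusted p = 0.0101). The difference between the genotypes' changes was 2.95 (95% confidence interval 1.95 to 3.95, adjusted p = 0.00143), and it was called. *Pxr*-/- CONT livers had a 2.52-fold higher signal than WT CONT livers, a difference of 1.33 with an adjusted p of 0.0847, which passed only when *Pxr*-/- CONT replicate 1 was left out (1.54, adjusted p = 0.0344). Within each of the 2 array washing batches the directions held. The WT change was 1.61 and 1.18 (adjusted p = 0.0707 and 0.0833), the *Pxr*-/- change -1.29 and -1.70 (0.321 and 0.0551) and their difference 2.91 and 2.88 (0.144 and 0.0322), with 2 or 3 arrays per group in a batch.

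Calls in opposite directions were rare on the array. Of 21056 genes, 3 were called in both genotypes with opposite signs, against 260 called in both with the same sign. *Cyp26a1* and *Fam198a* rose in WT and fell in *Pxr*-/-, *Fam198a* with changes of 1.25 and -0.73. The other gene, *Fam25c*, fell by 0.81 in WT and rose by 1.12 in *Pxr*-/-. The latter 2 were named after their values were seen.

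*Cyp26a1* is known as a gene of hepatocytes around the central vein. The 8 pericentral markers were all measured, and limma called none of them in any of the 4 comparisons, with between 2 and 4 at an unadjusted p under 0.05 in each. The log2 of their summed signal ranged from 18.24 to 18.39 in WT CONT, 17.99 to 18.45 in WT PCN, 18.28 to 18.55 in *Pxr*-/- CONT and 18.47 to 18.68 in *Pxr*-/- PCN. In whole liver, fewer cells of a type and less RNA per cell cannot be told apart.

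*Cyp26b1*, the other retinoic acid hydroxylase, which is known outside hepatocytes in many tissues, showed its lowest signals in WT PCN livers. Signals ran from 8.98 to 11.2 (median 10.31) in WT CONT mice and were 7.98, 6.67, 7.66, 6.71 and 8.4 in WT PCN mice. Every WT PCN mouse lay below every WT control, the fall for which the gene was chosen. The means were 10.26 ± 0.74 and 7.48 ± 0.77, a fitted change of -2.76 (SE 0.51) or 6.8-fold. In all alternative processings, which used the same arrays that chose the gene, the change stayed between -3.16 and -2.50.

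In *Pxr*-/- livers, which did not choose the gene, *Cyp26b1* was not called. Its signal ran from 7.17 to 10.36 (median 8.53) in CONT mice and from 8.04 to 10.48 (median 9.29) in PCN mice. The groups overlapped over most of their range. The means of 8.68 ± 1.09 and 9.25 ± 0.93 differed by 0.57 (95% confidence interval -0.44 to 1.57, adjusted p = 0.544, limma), an interval that reaches from a fall to a rise. *Pxr*-/- CONT livers lay below WT CONT livers by a fitted -1.58, and the difference between the genotypes' PCN changes was -3.33, both given without a test because they rest on the WT arrays.

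**Figure D1:**
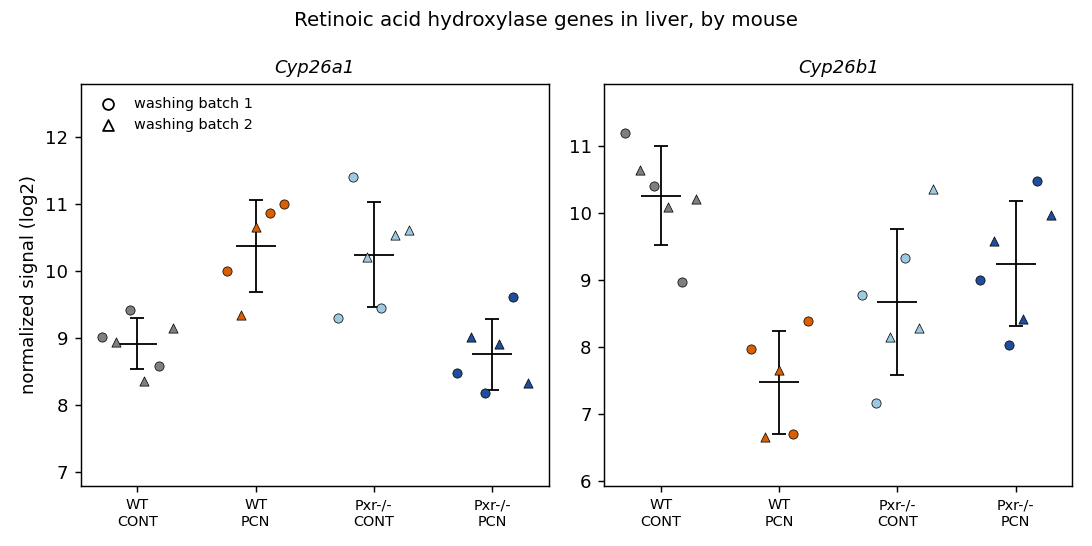
Normalized log2 signal of Cyp26a1 and Cyp26b1 in each of the 23 livers, with the mean (horizontal line) and SD (bars) of the 4 groups, circles for washing batch 1 and triangles for washing batch 2. Cyp26a1 is high in WT PCN and Pxr-/- CONT (means 10.37 and 10.24) and low in the other groups, while all WT PCN mice lie below all WT CONT mice for Cyp26b1, the gene chosen for that fall.

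By group mean, *Cyp26b1* was lowest in WT PCN, the fall for which it was chosen. *Cyp26a1* was low in both *Pxr*-/- PCN and WT CONT (8.75 and 8.91), which did not differ beyond their spread. Once group and batch means were removed, the signals of the 2 hydroxylase genes were nearly unrelated across the 23 livers (r = 0.12). *Cyp26b1* and *Rarb* correlated at 0.535 and *Cyp26a1* and *Rarb* at 0.265. The points share their arrays, and the values are descriptions.

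*Rara*, which encodes the retinoic acid receptor RARα, fell 1.53-fold after PCN in WT mice. Its signals ran from 11.7 to 12.07 (median 11.95) in WT CONT mice and were 11.38, 11.3, 11.45, 11.22 and 11.27 in WT PCN mice. All WT PCN mice were below all WT controls. The fitted change was -0.61 (SE 0.11, adjusted p = 0.00033, limma).

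In *Pxr*-/- mice the change of *Rara* was -0.24 (adjusted p = 0.157), from 12.03 ± 0.11 in CONT to 11.79 ± 0.28 in PCN mice, whose single values ran from 11.31 to 12.12 and overlapped the controls. The difference between the genotypes' changes was -0.37 (95% confidence interval -0.67 to -0.06) and was not called (adjusted p = 0.242). The other kept *Rara* probe (chr11:98835350-98835409) moved the same way in WT, with means of 9.86 ± 0.17 in CONT and 9.49 ± 0.15 in PCN mice and an adjusted p of 0.00944, but stayed under the fold limit. On that probe the WT groups overlapped, with the lowest CONT mouse at 9.66 and the highest PCN mouse at 9.69. The *Rara* call sat close to that limit. It was lost when both probes were averaged (-0.48), with the deposited values (-0.46), and without WT PCN replicate 4 or WT CONT replicate 5 (-0.58 each). Within the batches the change was -0.64 and -0.56 (adjusted p = 0.00475 and 0.12).

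*Rarb*, which encodes RARβ and carries the direct repeat shown above, was not called in any comparison. Its signal ran from 7.72 to 8.65 (median 8.27) in WT CONT mice and was 8.58, 8.65, 8.76, 8.84 and 8.87 in WT PCN mice. The WT PCN mice were tightly grouped at the top of the control range and above it, and the change of 0.47 had an adjusted p of 0.0453 but a fold of 1.38, under the limit. With the deposited values the WT change was 0.61 (adjusted p = 0.0182) and was called.

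In *Pxr*-/- mice *Rarb* signals ran from 7.93 to 8.84 (median 8.55) in CONT and from 7.89 to 8.6 (median 8.05) in PCN mice, a change of -0.33 (adjusted p = 0.216). The signs were those of *Cyp26a1*, positive in WT and negative in *Pxr*-/-, and the difference between the genotypes was 0.80 (95% confidence interval 0.33 to 1.27, adjusted p = 0.0858). That difference was not called in the main fit, in any of the 12 other settings, or in 20 of the 23 fits that left out a mouse. It was called without WT CONT replicate 2 (0.89), without *Pxr*-/- PCN replicate 6 (0.90) and without *Pxr*-/- CONT replicate 3 (0.91). The second kept *Rarb* probe had a difference of 0.50 (adjusted p = 0.184), and the remaining 2 probes were well above background on 1 array each. In WT that second probe ran from 6.27 to 6.58 in CONT and from 6.63 to 6.8 in PCN mice. Its WT change was 0.26 (adjusted p = 0.163, limma).

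*Rarg*, which encodes RARγ, had means of 9.38 ± 0.17 in WT CONT, 9.46 ± 0.09 in WT PCN, 9.16 ± 0.19 in *Pxr*-/- CONT and 9.45 ± 0.23 in *Pxr*-/- PCN mice. The values overlapped between all groups compared. Its changes were 0.09 in WT (adjusted p = 0.588) and 0.29 in *Pxr*-/- (adjusted p = 0.0825), neither called.

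*Dhrs3*, *Rdh10* and *Rdh16*, which act between retinol and retinal, were not called in any comparison. *Dhrs3*, a reductase that turns retinal back into retinol and is itself known to be induced by retinoic acid, had means of 14.61 ± 0.12, 14.58 ± 0.19, 14.54 ± 0.08 and 14.33 ± 0.16, in the order WT CONT, WT PCN and then the *Pxr*-/- groups likewise. Its lowest 3 signals, 14.17, 14.19 and 14.2, were all in *Pxr*-/- PCN mice, where the change was -0.21 (95% confidence interval -0.38 to -0.04, adjusted p = 0.123). *Rdh10*, the retinol dehydrogenase needed in the embryo, had group means between 10.55 and 10.59, and its change was -0.01 in WT and 0.04 in *Pxr*-/- (95% confidence intervals -0.17 to 0.14 and -0.11 to 0.19).

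*Rdh16*, a retinol dehydrogenase abundant in liver, varied more within groups. The WT PCN mice ranged from 9.52 to 11.09 (mean 10.56 ± 0.63) and the *Pxr*-/- CONT mice from 9.93 to 11.56 (mean 10.71 ± 0.55), so that its intervals were wide, -0.52 to 0.42 for the change in WT and -0.56 to 0.34 in *Pxr*-/-. *Rbp4*, the plasma carrier of retinol, had means of 18.02 ± 0.07, 17.96 ± 0.03, 18.01 ± 0.17 and 18.01 ± 0.05 in the same group order, and its changes of -0.05 and 0 had intervals of -0.18 to 0.08 and -0.12 to 0.13. Over the PCN changes of *Rdh10* and *Rbp4* in both genotypes, the interval bounds lay between -0.18 and 0.19.

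**Figure D2:**
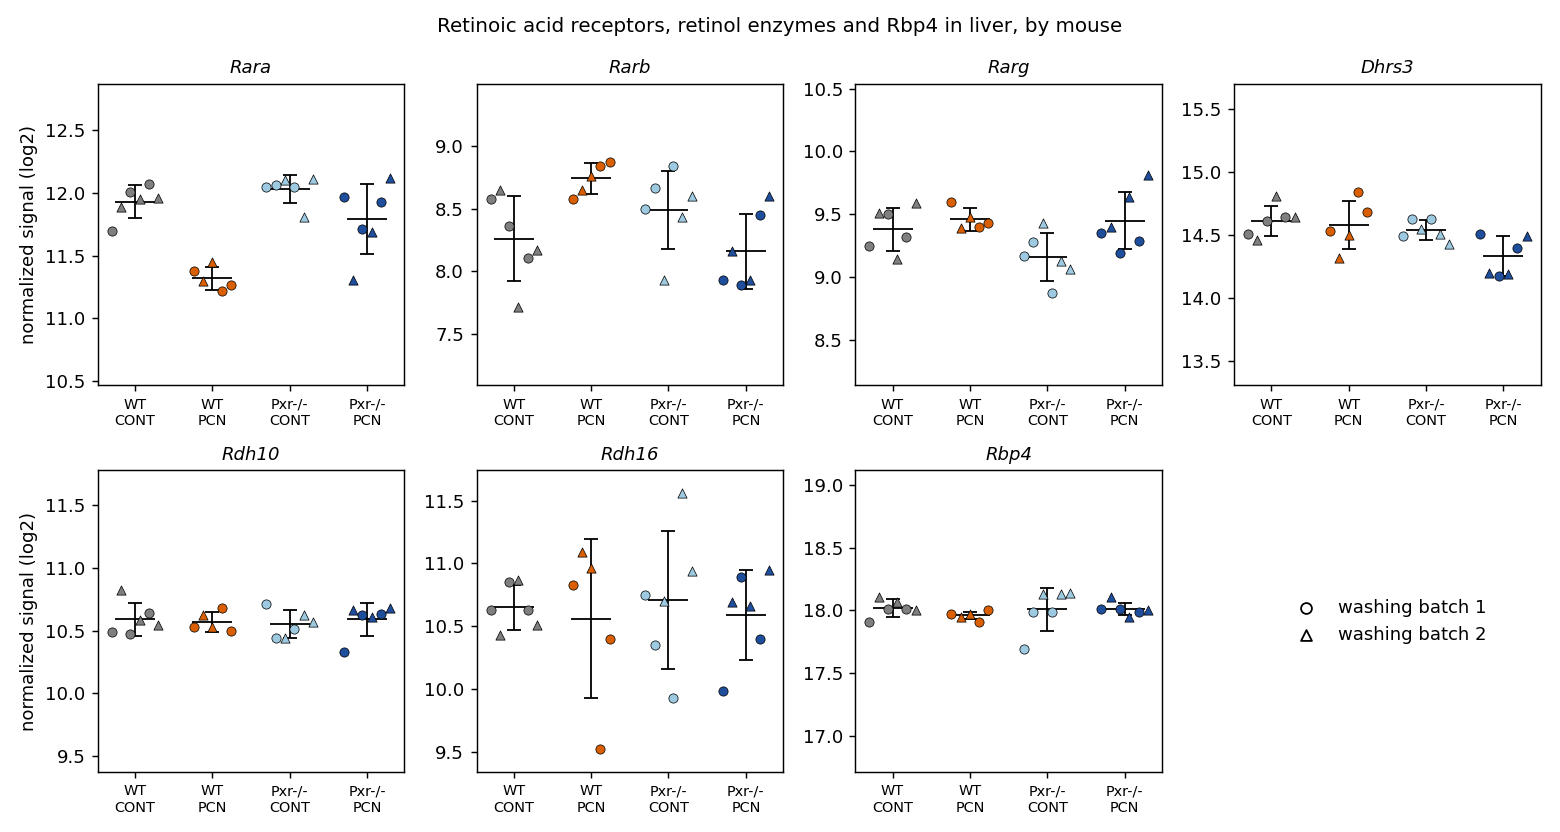
Normalized log2 signal of the 3 retinoic acid receptor genes, Dhrs3, Rdh10, Rdh16 and Rbp4 in each liver, all panels spanning 2.4 log2 units, with group means (horizontal lines) and SD (bars). On the probe shown, WT PCN mice lie below WT CONT mice for Rara (means 11.32 and 11.93). Rdh16 has the widest scatter in WT PCN and in both Pxr-/- groups, and Rarb has it in WT CONT.

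In all, 2 of the 8 members tested were called after PCN in WT mice, *Cyp26a1* higher and *Rara* lower, where 6.18% of all genes were called (3.79% higher and 2.39% lower). In *Pxr*-/- mice 1 of 9 was called, *Cyp26a1* lower, against 2.28% of all genes (1.42% higher and 0.86% lower), and 5 had an unadjusted p under 0.05. The difference between the genotypes was called for 1 of 8, *Cyp26a1*, against 1.05% of all genes (0.807% higher and 0.242% lower). Between the control groups limma called 0 of 8, against 0.309% of all genes (0.228% higher and 0.0807% lower), and 2 had an unadjusted p under 0.05. With so few members, single genes set these shares. The median change over the 9 members was -0.05 in WT and -0.11 in *Pxr*-/-, beside -0.024 and -0.012 over all 21056 genes. With the deposited values, the WT calls were 2 higher and 0 lower.

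**Figure D3:**
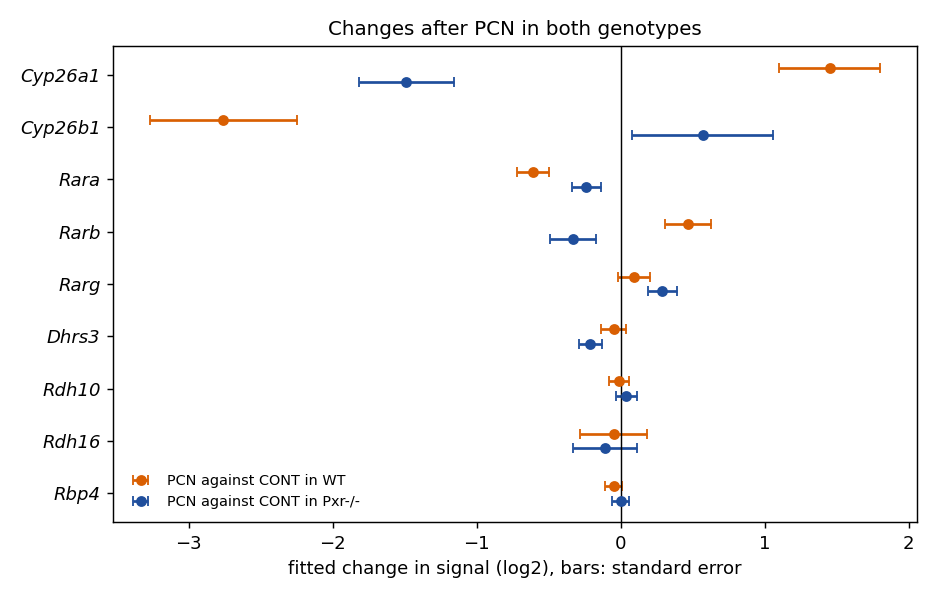
Fitted log2 change after PCN of the 9 genes in WT (orange) and Pxr-/- (blue) livers, with standard errors as bars. The points of Cyp26a1 lie at 1.45 and -1.49, and those of Cyp26b1, whose WT value is a description, at -2.76 and 0.57, while Rdh10, Rdh16 and Rbp4 lie near 0 in both genotypes.

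Around these genes, a list of 58 other genes of retinoid storage, synthesis, binding and response was read from the same fit. The list was chosen with earlier results of these data known, so its shares are descriptions and not a test of the pathway. Of these, 56 were on the array and 49 were measured. After PCN in WT mice 9 were called higher and 2 lower, 22.4% of the 49 against 6.18% of all genes. In *Pxr*-/- mice 1 was higher and 1 lower, 4.08% of the 49 against 2.28% of all genes. The median change of the 49 was near that of all genes, -0.02 in WT and 0.02 in *Pxr*-/-. In washing batch 1 alone 9 were called in WT and in batch 2 alone 4, and with the deposited values 9 were higher and 0 lower. The difference between the genotypes was called for *Pnpla3* alone, and the comparison of control livers for 0 of 49 (limma, 7 with an unadjusted p under 0.05).

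Among the 6 measured genes listed under the oxidation of retinal to retinoic acid, 3 were called higher in WT, against 3.79% of all genes. *Aldh1a1*, the abundant liver enzyme, rose by 0.71 (adjusted p = 7.26e-04), from 16.31 ± 0.25 to 17.00 ± 0.34. *Aldh1a7*, a close relative of *Aldh1a1* with little known activity on retinal, rose by 0.89 (adjusted p = 4.25e-06), and *Aldh1a3* rose by 1.47 (adjusted p = 1.16e-05), from 6.00 ± 0.18 to 7.50 ± 0.63. The 3 changed by 0.24, 0.43 and 0.53 in *Pxr*-/- (adjusted p = 0.284, 0.0119 and 0.0731, none called, *Aldh1a7* being under the fold limit), and none of their differences between genotypes was called (adjusted p = 0.241, 0.119 and 0.0712). Cross-hybridisation between *Aldh1a1* and *Aldh1a7* was not tested.

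Of 14 measured retinol dehydrogenases and retinal reductases outside the 9, *Rdh11* rose and *Adh4* and *Rdh9* fell in WT. That was 21.4% called, against 6.18% of all genes. *Rdh11* rose by 0.68 (adjusted p = 0.00247), *Adh4*, an alcohol dehydrogenase that also takes retinol, fell by 0.75 (adjusted p = 6.91e-04), and *Rdh9* fell by 0.69 (adjusted p = 0.0107). With the deposited values the falls of *Adh4* (-0.53) and *Rdh9* (-0.52) were not called. The *Rdh9* call was also lost with the mean of its kept probes (-0.33, adjusted p = 0.0612, limma) and without WT PCN replicate 4 (-0.57). Within batches 1 and 2 the *Rdh9* change was -0.97 and -0.33 (adjusted p = 0.00801 and 0.562). In WT, *Rdh7* (-0.25, adjusted p = 0.00184), *Dhrs4* (-0.38, 0.00401) and *Dhrs9* (0.45, 0.0272) passed the adjusted p and missed only the fold limit. So did *Rdh5* in *Pxr*-/- (0.52, adjusted p = 0.00109, limma). The carotenoid cleavage genes *Bco1* (-0.33, adjusted p = 0.048) and *Bco2* (-0.3, adjusted p = 0.0286) did so in WT.

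Among the 4 genes of retinyl ester storage and release, 2 were called higher in WT, against 3.79% of all genes. *Pnpla3*, a lipase that acts on retinyl esters in stellate cells and on triglycerides in hepatocytes, rose by 2.86 (adjusted p = 1.99e-04), from 5.56 ± 0.58 to 8.33 ± 0.83, with 3 of the 6 WT CONT arrays well above background. Its *Pxr*-/- means were 7.18 ± 1.23 and 7.18 ± 1.06, and the difference between genotypes was 2.86 (adjusted p = 0.0245). The size of both values depended on the background correction and the batch, from 2.22 to 4.19 in WT over 13 other settings, where the call held, and from 1.73 to 4.10 for the difference over 12, of which it missed the threshold with no batch term (2.77, adjusted p = 0.067) and within washing batch 1 (1.73, adjusted p = 0.392) or 2 (4.04, adjusted p = 0.0917) alone. The difference was also no longer called without *Pxr*-/- PCN replicate 3 (2.78), *Pxr*-/- CONT replicate 5 (2.70) or WT PCN replicate 2 (2.81). *Ces1d*, a carboxylesterase, rose by 1.07 in WT (adjusted p = 0.00165), though by 0.43 in batch 1 alone (adjusted p = 0.319).

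Stellate cells hold most of the liver's retinyl esters. Of the 14 stellate markers measured, 5 were called higher in each genotype, the collagen genes *Col1a1*, *Col1a2* and *Col3a1* among them, with 0 lower. Over all genes, 3.79% were called higher in WT and 1.42% in *Pxr*-/-. The median change of the 14 was 0.1 in WT and 0.11 in *Pxr*-/-. *Lrat*, also one of the 14, changed by -0.47 in WT (adjusted p = 0.0735, limma) and 0.04 in *Pxr*-/-. The log2 of the summed stellate signal ran from 15.51 to 16.3 in WT CONT, 15.82 to 16.47 in WT PCN, 15.2 to 16.08 in *Pxr*-/- CONT and 15.66 to 16.34 in *Pxr*-/- PCN mice, and its part in the *Cyp26b1* values was not tested.

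*Fabp5*, a carrier that can deliver retinoic acid to the receptor PPARδ, fell by 1.43 in *Pxr*-/- (adjusted p = 0.0167), from 15.38 ± 0.23 to 13.95 ± 1.09, and changed by -0.12 in WT (adjusted p = 0.855). Without *Pxr*-/- PCN replicate 4 its fall was -1.21 (adjusted p = 0.0531). The *Fabp5* call was also lost when only the groups compared were fitted (-1.43, adjusted p = 0.0536). It was lost too within washing batch 1 (-0.9, adjusted p = 0.425) and batch 2 (-1.96, adjusted p = 0.0692, limma). Among 9 measured genes known to respond to retinoic acid, *Rarres1* rose by 1.36 (adjusted p = 0.00187) and *Tgm2*, a transglutaminase, by 0.83 (adjusted p = 3.13e-04) in WT. These 2 made up 22.2% of the 9, against 3.79% of all genes called higher. Neither was called in *Pxr*-/- (0.05 and 0.40). *Zfp703*, another of these genes, fell by 0.56 in WT (adjusted p = 0.00419, limma). It missed only the limit on fold change, and was called with processed signals. The 3 RXR genes and the 6 receptor coregulators gave 0 calls by limma in either genotype, with 1 and 3 at an unadjusted p under 0.05 in WT and 1 and 2 in *Pxr*-/-. *Rxra* (-0.40, adjusted p = 2.71e-04), *Ncoa1* (-0.28, adjusted p = 0.00444) and *Ncoa3* (-0.20, adjusted p = 0.026) in WT, and *Ncoa1* in *Pxr*-/- (-0.23, adjusted p = 0.0368), passed the adjusted p and missed only the limit on fold change.

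**Figure D4:**
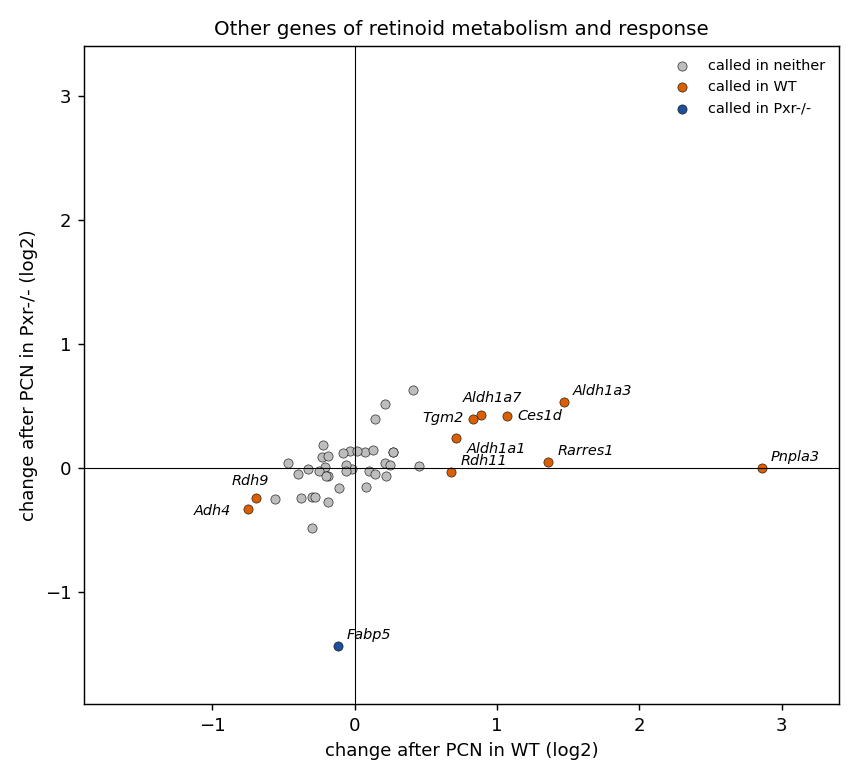
Fitted log2 change after PCN in WT livers (horizontal axis) and in Pxr-/- livers (vertical axis) of 48 measured list genes, coloured by the genotype in which they were called. Pnpla3 lies farthest right (2.86 in WT, 0 in Pxr-/-) and Fabp5 lowest (-1.43 in Pxr-/-, -0.12 in WT).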

How the data were processed

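Liver RNA of 23 mice was measured on Agilent 1-colour arrays. The deposited scanner files hold an intensity for each spot (Agilent Feature Extraction 10.10.1.1, per the submitters' processing notes) that were not normalized between arrays. The authors also deposited log2 values for 32574 probes of the same arrays, which per the study's methods were filtered, batch corrected for array washing and normalized with CrossNorm. These served as an alternative.

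The log2 median signals of non-control spots without an outlier flag were averaged per probe. Probes had to stand well above background on over 50% of a group's arrays in 1 group or more, and those kept were quantile normalized, which stands in for CrossNorm. Linear models (limma 3.58.1, R 4.3.3, data.table in version 1.17.8) used all 23 arrays with terms for group and, additively, washing batch (18 residual degrees of freedom). Contrasts compared PCN with control in each genotype, these 2 effects with each other, and *Pxr*-/- with WT controls. Because of the batch term, fitted changes differ slightly from differences of means. The script was tested on simulated data.

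Groups came from the labels, which describe separately treated mice. The members, lists and tests were chosen with earlier results of these data known. Named genes were the 9 members, every list gene called in any contrast, the 5 genes most correlated with *Cyp26a1* and with *Cyp26b1* (names in the RefSeq table, which held 71.7% of the names), and *Cyp3a11*, *Cyp2c55* and *Nr1i2* as checks. *Zfp703*, *Rxra*, *Ncoa1*, *Ncoa3*, *Rdh5*, *Rdh7*, *Dhrs4*, *Dhrs9*, *Bco1* and *Bco2* were named besides, as list genes that missed only the fold limit. *Lrat* was named as a stellate marker. The counts include 1 list gene that is not reported here. Marker lists covered hepatocytes (pericentral and periportal too), stellate, endothelial and Kupffer cells and cholangiocytes. Alternatives varied the signal, background correction, scaling, filter, batch term, slide and replicate blocks, the arrays fitted and the probe rule. Arrays give no counts, so their number limits the precision.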

Additional observations from a re-analysis of the deposited data

Results flagged for a closer look

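The difference between the genotypes' PCN changes of *Cyp26a1*, 2.95 on the log2 scale, was flagged because the test of the difference itself was passed.

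Single livers stood apart from the rest of their group for 3 of 36 combinations of gene and group examined with Dixon's test, and chance flags about 1 group in 20. *Rara* in *Pxr*-/- CONT replicate 5 had a log2 signal of 11.81, with the nearest mouse of the group at 12.05. *Rbp4* in *Pxr*-/- CONT replicate 1 was at 17.69, with the nearest mouse at 17.99. *Rdh10* in *Pxr*-/- PCN replicate 1 was at 10.33, with the nearest mouse at 10.61.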

How the results depend on the processing

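The signs of the *Cyp26a1* changes held in every alternative run, and the *Cyp26a1* calls in WT and *Pxr*-/- held outside the single washing batches. Those of *Cyp26b1* held too, but the runs used the arrays on which its WT fall chose the gene. They therefore give no support to that fall. Leaving out a mouse gave 1 to 2 called members in WT (1 without WT PCN replicate 4 or WT CONT replicate 5), 1 in *Pxr*-/- throughout, 1 to 2 for the difference between genotypes and 0 to 1 between control groups (*Cyp26a1*, without *Pxr*-/- CONT replicate 1). For the retinoid list these counts were 9 to 11 in WT, 1 to 3 in *Pxr*-/-, 0 to 2 for the difference and 0 to 1 between controls. Called members in WT numbered 1 in batch 1, 0 in batch 2, and 1 with the mean of a gene's probes; those in *Pxr*-/- numbered 0 in either batch, and the difference was called for 0 in batch 1. List calls in WT numbered 4 in batch 2. In *Pxr*-/- they numbered 0 in batch 1 and 1 when only the groups compared were fitted. For the difference they numbered 2 with the deposited values, 2 with the mean of probes and 0 without the batch term. Between controls they numbered 1 under processed signals, 75th percentile scaling, batch 2 or the mean of probes. The cause was not tested.

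The labels do not pair mice by replicate number, and the values that follow do not settle whether equal numbers share a factor. Same-numbered mice of different groups had deviations correlating from -0.17 to 0.611 (13 of 33 pairs over 0.1), and 7 of 23 arrays correlated best with their own number. With the replicate block, 1 member was called in WT, *Rara* at -0.58 being lost, and 1 list gene between controls, and no other count of calls moved by over 1.5 times.

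Small changes of uncalled members changed sign. *Dhrs3* in WT was 0.06 with processed signals, 0.04 with 75th percentile scaling, 0.21 with the deposited values, 0.10 in batch 1 and 0.09 with the mean of probes (-0.10 to 0.01 leaving out a mouse), and its genotype difference -0.02 in batch 2. *Rara* between controls was -0.04 with the deposited values and -0.01 with the mean of probes. *Rbp4* was 0.01 in WT with the deposited values, -0.11 in *Pxr*-/- in batch 2 (-0.06 to 0.02 leaving out a mouse), 0.01 for the difference in batch 2 (-0.07 to 0) and, between controls, 0.06, 0.05 and 0.07 with processed signals, 75th percentile scaling and batch 2 (-0.03 to 0.05). *Rdh10* in WT was 0.01 with normexp correction, 0.14 with the deposited values and 0.04 in batch 1 (-0.05 to 0.03), its *Pxr*-/- change -0.02 in batch 1, its difference 0.05 with the deposited values and 0.06 in batch 1, and its control difference 0.02 in batch 1. *Rdh16* in WT was 0.11 with the deposited values and 0.42 in batch 2 (-0.16 to 0.17), in *Pxr*-/- 0.08 in batch 1 (-0.23 to 0.03), for the difference -0.53 in batch 1 (-0.08 to 0.28) and between controls -0.09 and -0.36 with the deposited values and batch 1 (-0.08 to 0.17). The deposited values shift the median of all probes by 0.11 in WT and -0.11 between controls, against -0.02 and -0.01 here.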

Other observations

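The genes whose signals ran most like those of the hydroxylase genes over the 23 livers lay outside the retinoid list. For *Cyp26b1* these were *Rasal2* (r = 0.791), *Nudt22* (0.769), *Chp1* (0.769), *Trpc4ap* (0.760) and *Enpp4* (0.735), among 15058 genes. With group and batch means removed, *Enpp4*, a member of the ectonucleotide pyrophosphatase family, kept 0.717 and was the closest of all, *Trpc4ap* kept 0.625, and the rest lay between 0.397 and 0.481. For *Cyp26a1* the closest were *Alkbh7* (r = 0.735), *Nop10* (0.721), *Gm20764* (0.697), *Zfp462* (0.689) and *Dlat* (0.685). Their correlation within group and batch was 0.458, 0.493, 0.516, 0.605 and 0.153, so that of *Dlat*, a subunit of pyruvate dehydrogenase, came almost wholly from the group means, with changes of 0.64 in WT and -0.30 in *Pxr*-/- livers. These likenesses are descriptions over arrays that share groups and batches.

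Among the other marker lists, *Sox9* was called higher after PCN in WT livers, 1 of 5 measured cholangiocyte markers, against 3.79% of all genes. The 5 had a median change of 0.73 in WT and 0.62 in *Pxr*-/-, with 3 at an unadjusted p under 0.05 in each (limma). *Apoa1* (hepatocyte list, higher) and *Gls2* (periportal list, lower) were called in *Pxr*-/- livers. The 10 endothelial and 8 Kupffer cell markers gave 0 calls by limma in all 4 comparisons, with at most 3 at an unadjusted p under 0.05. *Cyp2c55*, the other label check, rose by 6.26 in WT (adjusted p = 4.89e-14), against a change of 0.54 in *Pxr*-/- (adjusted p = 0.14), and was higher by 2.80 in *Pxr*-/- CONT than in WT CONT livers (adjusted p = 1.53e-07).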
